A study of Mus musculus with 48 samples.

Results

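The nuclear-encoded genes of oxidative phosphorylation were taken as the rows of the deposited gene table whose symbols belong to complex I (Nduf), complex II (Sdh), complex III (Uqcr), complex IV (Cox4i, Cox5, Cox6, Cox7, Cox8) or the ATP synthase, complex V (Atp5). The rule found 84 of 23420 rows: 37 for complex I, 4 for complex II, 8 for complex III, 18 for complex IV and 17 for complex V. Of these, 79 had a mean of at least 1 CPM (a gene's counts per 1 M gene counts of the library), and they are the genes described below unless another number is given. The 3 genes just inside this limit were Cox6b2 (1.69 CPM), Cox4i2 (2.20 CPM) and Cox6a2 (3.75 CPM). The 3 just outside it were Cox7a1 (0.745 CPM), Cox7b2 (0.211 CPM) and Cox8b (0.208 CPM). Cox8c and Ndufs5 were at about 0 in the gene table.

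Striatal RNA was read in 16 mice of about 50 days: 8 that carry a 112 kb congenic segment, and 8 wild-type (C57BL/6J) littermates. Either genotype had 4 females and 4 males. The segment is, as background knowledge of the line, DBA/2J sequence on a C57BL/6J background. Punches of 3 mm from both sides of a brain were pooled per mouse, and each library was run on 3 lanes, which were summed. The study asked, by its title, about splicing. In bulk tissue, a difference in the number of cells of a type and a difference in RNA per cell cannot be told apart.

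As background, complexes I and II pass electrons from NADH and succinate to ubiquinone, complex III passes them to cytochrome c, and complex IV, cytochrome c oxidase, hands them to oxygen. The proton gradient that builds up drives the ATP synthase. Complexes I, III, IV and V are built from nuclear and mitochondrial gene products, while complex II is nuclear alone. Striatal projection neurons depend on this pathway, and the complex II poison 3-nitropropionic acid damages the striatum first.

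Libraries held 73.1 to 82.0 M counts in genes. Summed markers of striatal projection neurons were at 8425 to 10284 CPM in congenic and 8655 to 10575 CPM in wild-type mice, and all 13 were detected. The 10 cortical excitatory neuron markers summed to 62.6 to 310 CPM in congenic and 99.6 to 277 CPM in wild-type mice. Of 3 blood markers, 2 were listed at 0 in all mice. Markers of interneurons, astrocytes, oligodendrocytes, microglia, endothelium, ependyma and choroid plexus had ranges that overlapped between the genotypes. Mouse Sample_4673, a congenic male, stood apart from the other 15, and the main values that it moved by over 1.5 times are given without it as well. Values given only once may also rest on this mouse. Mouse Sample_4806, recorded as a wild-type female, had 2.73 CPM of Xist, an RNA of female cells, against 958 to 1535 CPM in the remaining 7 females, so the main results by sex are also given without it.

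Promoters of genes that moved together across mice are shown first, with 1 gene that moved against them, because co-variation across mice is described at length below. RefSeq windows from 250 bases before to 50 bases after the gene start, on GRCm38.p6, were at hand for 66 of the 79 genes, and the first window listed was used. The search, on both strands, used 5 short motifs: GCGCNTGCG for NRF1, AANATGGCG for YY1, CCGGAAG for ETS factors such as GABP, CAAGGTCA for the ERR receptors and GGGCGG for SP1. Capitals mark a match to any of them. Atp5j2 (membrane subunit f of the ATP synthase), Cox7a2 and Cox7c (small subunits of complex IV) come from the most correlated pairs, and Ndufv1, the NADH-binding core subunit of complex I, from the pair of lowest correlation.
Atp5j2, chr5:145191492-145191791, minus strand: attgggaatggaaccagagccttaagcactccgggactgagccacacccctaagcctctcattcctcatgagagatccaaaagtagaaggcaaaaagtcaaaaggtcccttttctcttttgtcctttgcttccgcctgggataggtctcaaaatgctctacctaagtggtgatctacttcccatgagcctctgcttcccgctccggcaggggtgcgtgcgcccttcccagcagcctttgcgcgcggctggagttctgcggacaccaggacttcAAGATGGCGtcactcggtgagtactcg
Cox7a2, chr9:79759804-79760103, minus strand: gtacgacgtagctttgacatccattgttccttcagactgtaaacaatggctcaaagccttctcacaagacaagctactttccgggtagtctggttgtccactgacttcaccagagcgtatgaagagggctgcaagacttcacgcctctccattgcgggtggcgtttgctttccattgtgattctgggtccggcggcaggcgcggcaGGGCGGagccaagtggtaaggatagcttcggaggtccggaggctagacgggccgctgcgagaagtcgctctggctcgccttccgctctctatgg
Cox7c, chr13:86046746-86047045, minus strand: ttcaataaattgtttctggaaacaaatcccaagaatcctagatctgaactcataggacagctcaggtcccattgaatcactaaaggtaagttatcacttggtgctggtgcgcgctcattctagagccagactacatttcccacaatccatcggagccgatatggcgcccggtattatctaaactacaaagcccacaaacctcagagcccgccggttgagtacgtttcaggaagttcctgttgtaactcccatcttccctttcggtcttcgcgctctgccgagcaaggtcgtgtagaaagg
Ndufv1, chr19:4012706-4013005, minus strand: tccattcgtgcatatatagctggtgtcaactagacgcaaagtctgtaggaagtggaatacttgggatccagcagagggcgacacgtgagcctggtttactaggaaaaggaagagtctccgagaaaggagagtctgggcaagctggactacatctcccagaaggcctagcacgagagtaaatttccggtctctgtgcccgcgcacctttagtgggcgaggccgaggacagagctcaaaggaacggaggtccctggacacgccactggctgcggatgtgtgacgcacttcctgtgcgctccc

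The Atp5j2 window held 1 YY1 match, and the Cox7a2 window held 1 SP1 match. The windows of Cox7c and Ndufv1 held no match, which says only that these letters were not in these windows. Over the 66 genes, the NRF1 letters stood in 21 windows (31.8%), against 6.59% of all 27025 windows. The YY1 letters stood in 9 (13.6% against 2.51%), the ETS letters in 15 (22.7% against 9.12%), the ERR letters in 3 (4.55% against 1.53%) and the SP1 letters in 28 (42.4% against 35.9%). Windows of these genes held a median of 19.5 CG steps against 7 over all windows, and the share of that base composition in the motif counts was not tested. Sdha, Uqcrc1, Cox6a1 and Ndufb4 each held 3 NRF1 matches. The NRF1 letters were in 7 of 16 complex V windows and in 1 of 10 complex IV windows.

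The levels of the subunits were first compared per length, as mean CPM per kb of the union of a gene's exons (CPM per kb). On this length, complex IV genes had the highest median level, with a median over its 14 genes of 132 ± 11.3 CPM per kb (mean ± SD over 16 mice). Complex III followed with 96.2 ± 4.68, complex V with 92.3 ± 5.25, complex I with 67.5 ± 4.73 and complex II with 54.4 ± 3.11 CPM per kb (SD, n = 16 each). The ranges over mice of complexes III and V overlapped, with 90.2 to 106 and 83.8 to 102 CPM per kb. The order turned with the transcript length used, the first place included: by the median length of coding transcripts complex V had 203 and complex IV 201 CPM per kb, complex V stood above III, and complex II above I. All 79 genes together took 11223 ± 546 CPM (SD, n = 16), of which complex V took 4000 ± 119 CPM, complex I 3282 ± 184 CPM, complex IV 2306 ± 203 CPM, complex III 889 ± 47.8 CPM and complex II 746 ± 20.01 CPM (SD, n = 16 each).

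**Figure D1:**
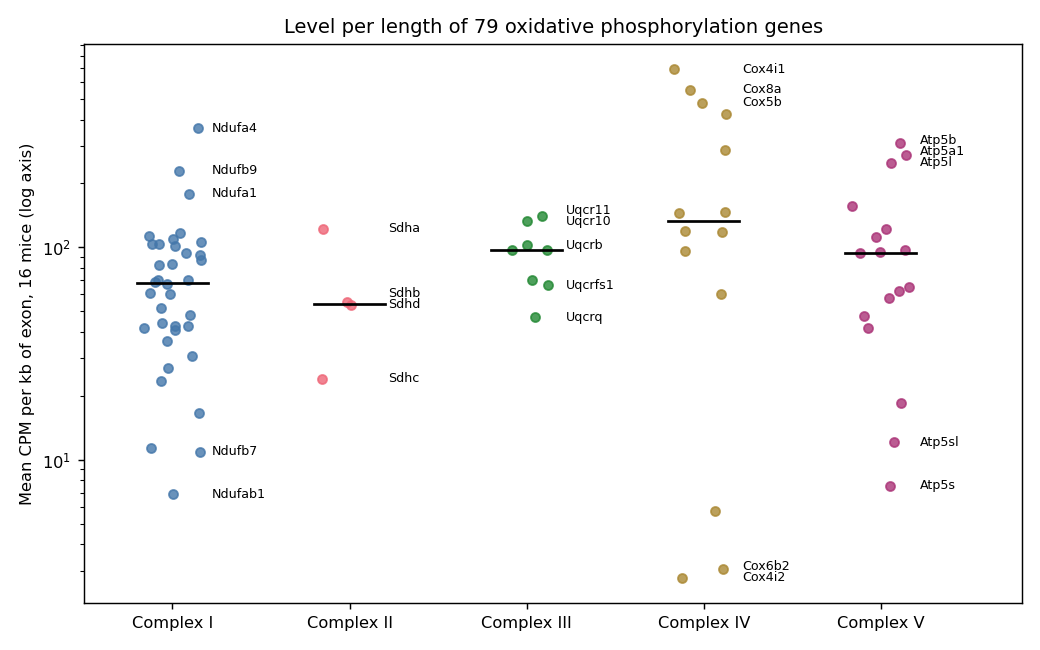
Each point is a gene, plotted by complex on the x axis and by its mean level over 16 mice on the y axis, in CPM per kb of exon on a log axis, with a bar at the median. Complex IV reaches from Cox4i2 at 2.79 to Cox4i1 at 689 CPM per kb, the widest spread of the 5 complexes.

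Within complex I, Ndufa4, now placed by many authors with complex IV, had the highest level per length with 364 CPM per kb, before the accessory subunits Ndufb9 (229) and Ndufa1 (179 CPM per kb). Ndufab1, the mitochondrial acyl carrier protein, and Ndufb7 were lowest with 6.88 and 10.9 CPM per kb. Both have annotated exon unions that are long for them, 6883 and 4522 bp, and on the median length of their coding transcripts they stood at 48.1 and 79.3 CPM per kb. Ndufs1, the large iron-sulphur core subunit, was at 42.8 CPM per kb and Ndufv1 at 60.9 CPM per kb.

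On the exon union, the 4 genes of complex II spread from 24.1 to 122 CPM per kb. Sdha, the flavoprotein that oxidises succinate, was at 122 CPM per kb, and Sdhb, its iron-sulphur partner, at 55.2 CPM per kb. The membrane anchors Sdhd and Sdhc were at 53.5 and 24.1 CPM per kb. Sdhc lies at chromosome 1, 173057296 to 173080734, on NCBIM37 and has an exon union of 3250 bp, and on the median length of its coding transcripts it was at 96.1 CPM per kb. In complex III the accessory subunits Uqcr11 (140), Uqcr10 (133) and Uqcrb (102 CPM per kb) were highest. Uqcrfs1, the Rieske iron-sulphur protein, was at 66.4 and Uqcrq at 46.9 CPM per kb, the lowest of the 8. This order turned with the length. On the median length of coding transcripts Uqcrq was at 170, Uqcrh highest at 253 and Uqcrfs1 lowest at 66.4 CPM per kb. In complex V the catalytic subunits Atp5b (309) and Atp5a1 (273) and the membrane subunit Atp5l (250 CPM per kb) were highest. Atp5s and Atp5sl, which carry the family's name and are not core subunits, were at 7.54 and 12.1 CPM per kb.

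In the paralogue sets of complex IV, 1 form mostly took nearly all counts. As background, Cox6a2, Cox7a1 and Cox8b are the heart and skeletal muscle forms, Cox4i2 is known from lung, and Cox6b2, Cox7b2 and Cox8c are known from testis. Per length, Cox4i1 made up 99.6 ± 0.0585% of the Cox4i pair, Cox6a1 98.7 ± 0.154% of the Cox6a pair and Cox6b1 98.9 ± 0.140% of the Cox6b pair (SD, n = 16 each). Cox7b made up 99.6 ± 0.167% and Cox8a 99.9 ± 0.0414% of their sets (SD, n = 16 each). The minor forms were present in each library at low levels, except Cox8c, with 247 to 334 counts of Cox6a2, 142 to 220 of Cox4i2, 35 to 89 of Cox7a1 and 3 to 24 of Cox8b per mouse. Cox8c had 0 to 2 counts, and a count of 0 does not show that it is absent.

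In the Cox7a set, Cox7a2 and Cox7a2l, the latter known as a factor that joins complexes III and IV into supercomplexes, were close, with 54.9 ± 1.41% and 44.3 ± 1.45% per length, and Cox7a1 had 0.762 ± 0.154% (SD, n = 16 each). Cox5a and Cox5b, which are different subunits, were at 145 and 480 CPM per kb, Cox7c at 120 and Cox6c at 60.2 CPM per kb. The exon union of Cox6c spans 3567 bp. On the median length of coding transcripts Cox6c stood at 427 and Cox7c at 251 CPM per kb, so their order turned. The 3 genes Atp5g1, Atp5g2 and Atp5g3 encode the same mature c subunit of the ATP synthase ring. By counts, Atp5g3 gave 54.8 ± 0.679%, Atp5g1 24.1 ± 0.886% and Atp5g2 21.1 ± 0.837% of their sum (SD, n = 16 each). Per length of the exon union, Atp5g2 had the largest share with 52.1 ± 1.18%. Its union spans 647 bp, against 2181 bp for Atp5g3 and 4908 bp for Atp5g1. On the median length of coding transcripts Atp5g3 had the largest share with 53.0%, so the order of the 3 turns with the length. Atp5g3 gave 54.8 ± 0.552% in congenic and 54.7 ± 0.820% in wild-type mice by counts (SD, n = 8 each), a difference within the spread between mice.

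The gene table and the exon table disagreed on Ndufs5, an accessory subunit of complex I. This gene had 2 counts over all 16 mice in the gene table. In the exon table its 9 bins held 8708 to 11359 counts per mouse with a median of 10411, so the entry of the gene table was not read as its level, and the cause was not tested. Its exon counts were 81.1 ± 7.83 CPM of exon counts in congenic and 77.6 ± 4.50 in wild-type animals (SD, n = 8 each, p = 0.283 in a two-sided exact permutation test). Over 12513 genes, gene counts were a median of 68.0% of exon bin counts, with 80% of genes between 48.6 and 94.4%. The lowest members besides Ndufs5 were Cox5b (29.9%), Ndufb8 (35.7%), Ndufa7 (36.0%) and Ndufa3 (38.3%). A read counts in each bin it overlaps, and Cox5b has 9 bins, Ndufa7 22 and Ndufa3 17. The 54 bins of Ndufb8 belong to a group of 3 genes. These shares were therefore not read as low levels in the gene table. Exons of 18 of the 84 genes overlap those of another gene, mostly on the other strand, and their counts may be shared since the strand setting of the counting is not stated.

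Across mice the genes of all 5 complexes moved together. The median Pearson r of log2(CPM + 1) over the 16 mice was 0.61 over all pairs of the 79 genes, against 0.03 over pairs of 14009 other genes with at least 1 CPM. Of the pairs, 61.4% had r above 0.5, against 9.72% of pairs of other genes. These are descriptions over the same 16 libraries, which share depth and dissection, and genes are not independent replicates. Without mouse Sample_4673 the median was 0.52. In the residuals of genotype and sex it was 0.65, so the pattern was present within the groups.

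The complex a gene belongs to made little difference to this. The median r was 0.63 within complexes and 0.60 between them. It was 0.72 within complex III, 0.65 within complex I, 0.65 within complex IV, 0.51 within complex V and 0.32 within complex II. Without mouse Sample_4673 these values were 0.55 (III), 0.57 (I), 0.52 (IV), 0.35 (V) and 0.52 (II). Complex V was then the lowest, so the place of complex II rests on this mouse. With all mice, complexes III and IV had 0.72 between them and complexes II and V 0.43. Short genes moved together more closely than long ones. Pairs of the 41 genes with a longest transcript under 1000 bp had a median r of 0.74, pairs of the 25 genes of 1500 bp or more 0.35, and short with long genes 0.52.

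**Figure D2:**
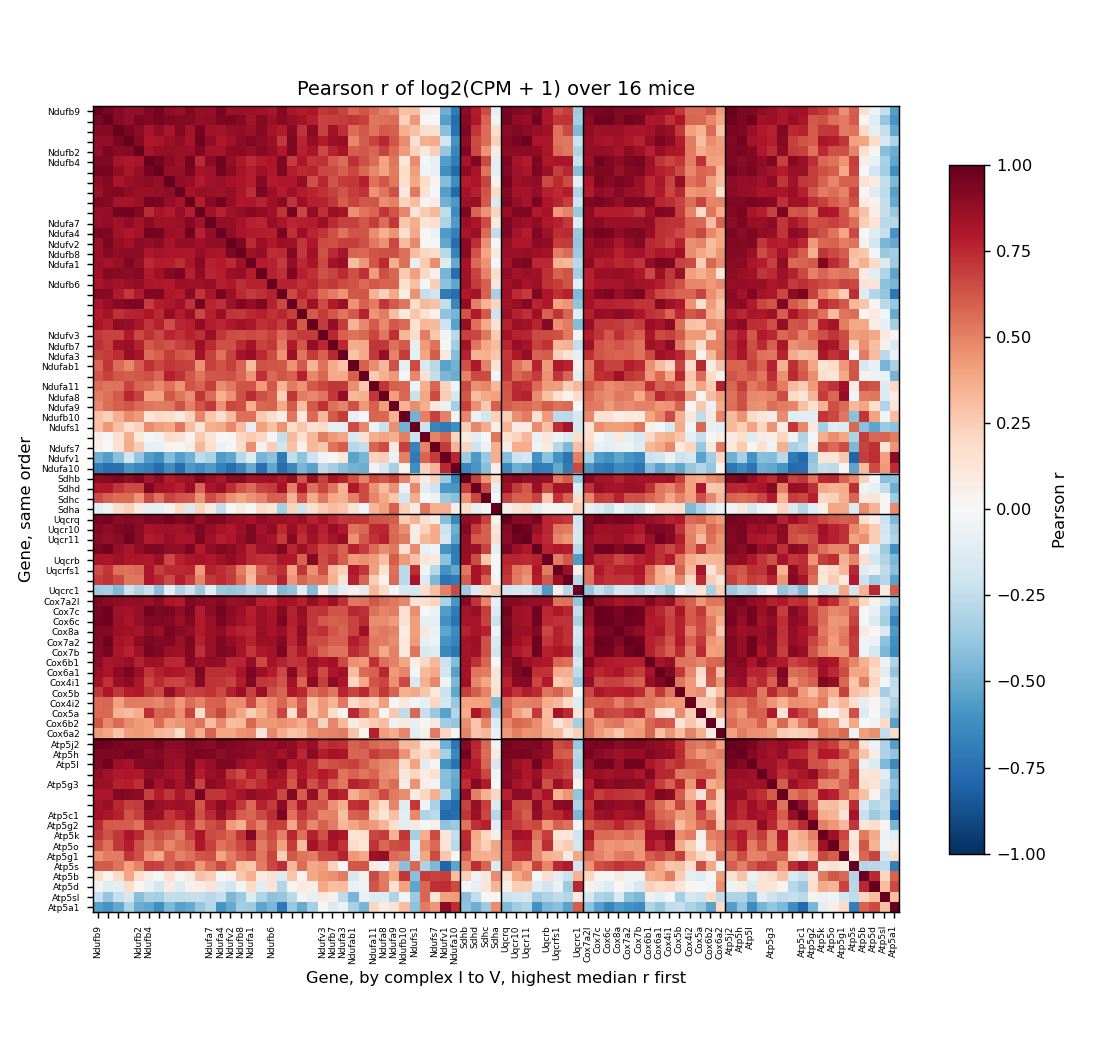
Both axes order the 79 genes by complex, with names for those described in the text, and colour gives Pearson r of log2(CPM + 1) over 16 mice from -1 (blue) to 1 (red), with black lines between complexes. The red field crosses the lines between complexes, and blue bands run along Ndufa10, Ndufv1, Uqcrc1, Atp5a1 and Atp5sl.

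The closest pairs were Ndufb9 with Atp5j2, at r = 0.98 and Spearman's rho = 0.94, Cox7a2 with Cox7c, at 0.98 and 0.93, and Cox6c with Cox7c, at 0.98 and 0.93 over the 16 mice. Without the 2 mice farthest from the median they had r = 0.94, 0.96 and 0.96. Ndufb9 and Atp5j2 belong to different complexes and different chromosomes, 15 and 5. At the other end, 5 genes had a negative median r with the other members: Ndufa10 (-0.53), Atp5a1 (-0.40), Ndufv1 (-0.36), Atp5sl (-0.23) and Uqcrc1 (-0.19). Atp5a1 is the alpha subunit of the catalytic head and Uqcrc1 a core subunit of complex III. Without mouse Sample_4673 the values were -0.41, -0.31, -0.30, -0.11 and 0.17, so that of Uqcrc1 changed its sign. The lowest pairs were Ndufv1 with Atp5s (r = -0.80, rho = -0.64), Atp5a1 with Atp5c1 (-0.78, -0.74) and Ndufv1 with Atp5c1 (-0.78, -0.62). Without the 2 farthest mice these were -0.79, -0.80 and -0.71.

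Among the steadiest members over mice were large, abundant ones. Sdha had a coefficient of variation (CV) of 2.80%, Atp5b 3.07%, Ndufs1 3.84%, Ndufa9 3.92% and Uqcrc1 3.92%. The largest CVs were those of the scarce Cox4i2 (16.3%) and Cox6b2 (16.2%), then of Cox6c (12.5%), Cox7c (11.5%), Cox7a2 (11.3%) and Atp5j2 (11.2%). The median CV of the 79 genes was 7.99%, near the 8.06% of 14088 tested genes at 1 CPM or more. It was 10.4% in complex IV and 6.15% in complex II.

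A score per mouse was formed as the mean, over genes, of log2(CPM + 1) less that gene's mean. Congenic mice ranged from -0.11 to 0.21 with a median of 0.03, and wild-type mice from -0.11 to 0.06 with a median of -0.02. The groups overlapped over most of their range. Mouse Sample_4673 was the highest at 0.21 and mouse Sample_4733, also a congenic male, the next at 0.11. Mice Sample_4671 (congenic) and Sample_4738 (wild-type) were the lowest, both at -0.11. Mouse Sample_4673 was the highest mouse for 52 of the 79 genes.

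**Figure D3:**
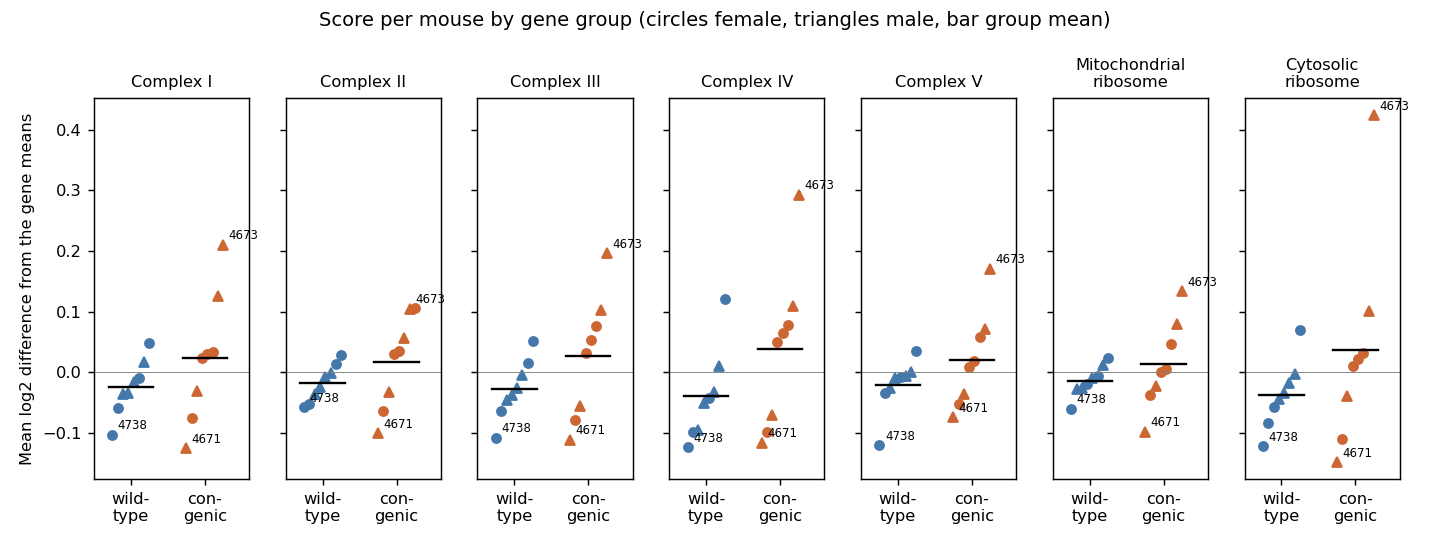
Each panel plots the score of a gene group, the mean log2 difference from the gene means, for 8 wild-type (blue) and 8 congenic (orange) mice, with circles for females, triangles for males and a bar at the group mean. Mouse Sample_4673 stands highest in all panels but that of complex II, and the genotypes overlap in each.

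Other gene groups moved with the score. Cytosolic ribosomal proteins, 82 tested genes, followed it with r = 0.95 and rho = 0.95 over the 16 mice, and with r = 0.97 without mouse Sample_4673. The median r of a member with a cytosolic ribosomal protein gene was 0.72, above the 0.61 among the members themselves, so that the co-variation was not limited to oxidative phosphorylation. It was 0.47 with mitochondrial ribosomal proteins, 0.40 with assembly factors of the complexes, 0.23 with genes of the citric acid cycle and pyruvate dehydrogenase and -0.06 with the regulators. Of 14009 genes outside the set, the 8 most like the score were Fis1, a mitochondrial fission factor (r = 0.98), Pfdn5, a subunit of the prefoldin chaperone (0.97), Myl6, a myosin light chain (0.97), Lamtor2 (0.97), Rpl37a (0.96), Rps27a (0.96), 2410015M20Rik (0.96) and Rpl27 (0.96). Their longest transcripts measured 584 to 1062 bp. Among cell type scores, interneuron markers had r = -0.63 (rho = -0.52) with the score and -0.37 without mouse Sample_4673, and striatal projection neuron markers -0.46 (rho = -0.56) and -0.53. Astrocyte markers had 0.37 (rho = 0.48) and 0.71 without that mouse, and cortical markers -0.38 (rho = -0.18) and -0.09. The part of these cell types in the score was not tested.

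The 13 protein-coding genes of mitochondrial DNA are not in the gene table and were read from the exon table. Their gene groups took 6.03 ± 1.03% of exon counts in congenic and 5.60 ± 0.556% in wild-type animals (SD, n = 8 each). The congenic mice ran from 5.25 to 8.34% with a median of 5.63%, the wild-type mice from 5.07 to 6.71% with a median of 5.47%. The groups overlapped, and the difference was within the spread between mice (p = 0.357, adjusted over 2 tests 0.702, two-sided exact permutation test). Without mouse Sample_4673 the congenic mean was 5.70 ± 0.458% (exact permutation p = 0.715). Males had 5.71 ± 1.10% and females 5.92 ± 0.490% (SD, n = 8 each, exact permutation p = 0.702). Without mouse Sample_4673, a male, the males were lower by 0.584 percentage points with an exact permutation p of 0.0146, so that 1 library decides this comparison. Without mouse Sample_4806 they were lower by 0.0953 percentage points (exact permutation p = 0.879).

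Mouse Sample_4673 had the highest share, 8.34%. Its level of mt-Co1, the catalytic subunit of complex IV, was 25869 CPM of exon counts, against group medians of 17267 in congenic and 16808 in wild-type animals. Its ratio to the median of the other mice was 1.55 for mt-Co3, 1.46 for mt-Nd4 and 1.52 for mt-Nd3. It was 1.11 for the 161 bp bin of mt-Atp8, and the 290 bp bin of mt-Nd4l had 0.0237 to 0.0921 CPM and was not read as a level. Over the 16 mice the mitochondrially encoded share followed the score of the nuclear genes with r = 0.75 and rho = 0.51. Without mouse Sample_4673 r was 0.46, and without it and mouse Sample_4806, the 2 farthest, 0.36, so the relation rests on those mice.

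Between the genotypes, no oxidative phosphorylation gene passed the test. Of the 79 genes, 73 had a log2 fold change above 0 in congenic against wild-type mice, with a median of 0.06, while 51.1% of all 16716 genes tested were above 0, with a median of 0.00. EdgeR's quasi-likelihood test called 0 of 79 at an adjusted p under 0.05, where it called 0 of all genes (0.0%), and 2 of 79 had an unadjusted p under 0.05, against 1.53% of all genes. DESeq2 called 0 with 3 of 79 under 0.05, and limma-voom 0 with 1 of 79. In no gene did the 8 congenic and 8 wild-type values fail to overlap (0.0% of all genes tested). Since the 79 genes move together across mice, 73 in 1 direction are not 73 independent signs.

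**Figure D4:**
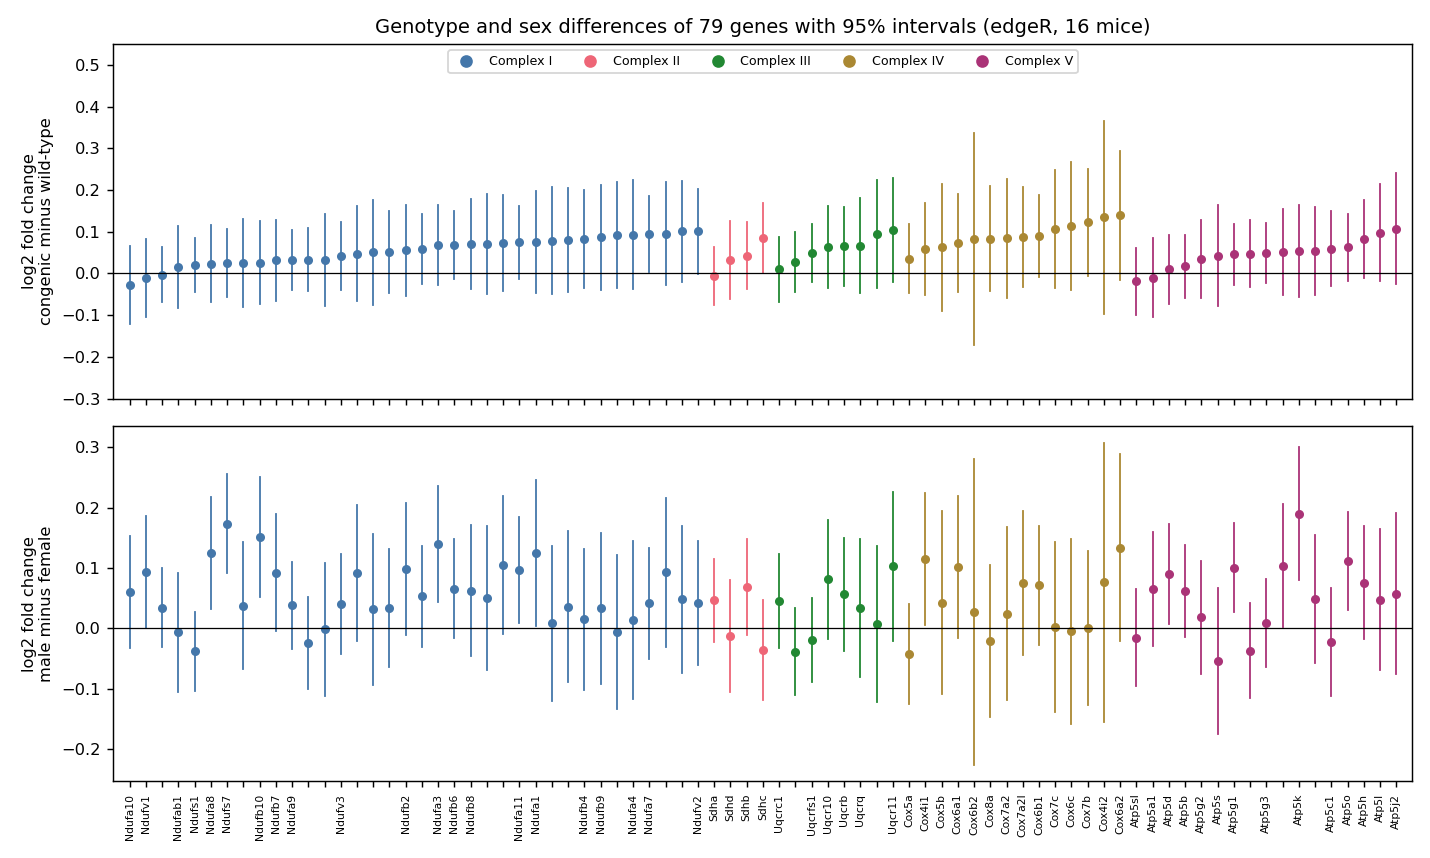
The upper panel plots the log2 fold change of congenic against wild-type mice and the lower panel that of males against females for 79 genes along the x axis, coloured by complex and named where the text describes them, with 95% intervals from edgeR over 16 mice. Most points of the upper panel lie above 0 while 77 of the 79 intervals include 0.

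The excess was largest in complex IV, where all 14 genes had a log2 fold change above 0 with a median of 0.09. It was 0.06 in complex III (8 of 8 above 0), 0.06 in complex I (33 of 36), 0.05 in complex V (15 of 17) and 0.04 in complex II (3 of 4). Without mouse Sample_4673 these medians were 0.05 (complex IV), 0.03 (III), 0.03 (I), 0.02 (V) and 0.01 (II). Differences between complexes were not tested. The accessory subunits of complex I had 0.07 (28 of 29 above 0) and its 7 core subunits 0.02 (5 of 7). Without mouse Sample_4673 the median of the 79 genes fell to 0.03, with 77 of 79 above 0, and without mouse Sample_4671, the lowest congenic mouse, it was 0.08, so leaving out Sample_4673 moved it by more than 1.5 times. Markers of cortical excitatory neurons had a median log2 fold change of -0.39 by genotype (1 of 10 above 0, none called). Oligodendrocyte markers had 0.08 (5 of 5 above 0), ependymal markers -0.09 (0 of 4) and endothelial markers -0.05 (0 of 3), with none called. In females oligodendrocyte markers had 0.22 (5 of 5 above 0), ependymal markers -0.37 (0 of 4) and endothelial markers 0.10 (3 of 3). In males they had -0.06 (0 of 5), 0.23 (3 of 4) and -0.19 (0 of 3), so the signs turned with sex. Interneuron markers had -0.06 (2 of 6 above 0) and choroid plexus markers 0.09 (2 of 3) over both sexes. Astrocyte, microglial and striatal projection neuron markers had -0.02 (2 of 5), 0.02 (4 of 5) and 0.00 (9 of 13). The part of these cell types in the result was not tested.

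The genes of smallest p can be given by their values. Ndufa7, an accessory subunit of complex I, ran from 48.7 to 62.7 CPM with a median of 53.2 in congenic mice and from 49.1 to 52.7 with a median of 50.2 CPM in wild-type mice. All wild-type values lay inside the congenic range. The log2 fold change was 0.10 (SE 0.04, p = 0.0427, edgeR adjusted p = 0.999).

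Sdhc ran from 73.01 to 92.1 CPM with a median of 80.9 in congenic and from 73.5 to 83.7 CPM with a median of 75.2 in wild-type mice. The wild-type range lay within the congenic range. The log2 fold change was 0.08 (SE 0.04, p = 0.0463, edgeR adjusted p = 0.999), and 0.08 without mouse Sample_4673.

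Cox7b, an X-linked subunit of complex IV, ran from 105 to 146 CPM with a median of 123 in congenic and from 103 to 128 CPM with a median of 108 in wild-type mice, a log2 fold change of 0.12 (SE 0.06). The ranges overlapped from 105 to 128 CPM. Among the 10 genes of smallest p the others were Ndufv2 (0.10), Cox6b1 (0.09), Cox6a2 (0.14), Atp5h (0.08), Ndufa11 (0.07), Uqcr11 (0.10) and Atp5l (0.10 as log2 fold change), with edgeR adjusted p of 0.999 each. All had unadjusted p between 0.0532 and 0.0968. Left without Sample_4673, most of the 10 had smaller differences: 0.06 for Ndufa7, 0.07 for Ndufv2, 0.08 for Cox7b, 0.05 for Cox6b1, 0.05 for Atp5h, 0.07 for Uqcr11 and 0.06 for Atp5l, while Cox6a2 had 0.12 and Ndufa11 0.07. The Sdh genes besides Sdhc had -0.01 (Sdha), 0.04 (Sdhb) and 0.03 (Sdhd), and 0.003, 0.02 and 0.006 without mouse Sample_4673.

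Abundant subunits differed less than the spread between mice. Cox4i1, the largest nuclear subunit of complex IV, ran from 410 to 592 CPM with a median of 466 in congenic and from 410 to 484 CPM with a median of 466 in wild-type mice. Mouse Sample_4673 alone set the upper end, and the medians were alike. Atp5b ran from 1271 to 1377 CPM (median 1304) in congenic and from 1232 to 1351 CPM (median 1314) in wild-type mice. For the 76 genes with at least 10 CPM, the 95% intervals of the log2 fold change reached from -0.12 (Ndufa10) to 0.27 (Cox6c), so larger differences than these lay outside the intervals.

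Genes around the complexes, from lists of other members of the pathway, had smaller medians. Of 43 tested assembly factors, 34 had a log2 fold change above 0 by genotype with a median of 0.03. The smallest p were those of Ndufaf4 (0.10), Ndufaf2 (0.12) and Ndufaf3 (0.07). All 9 genes in the list of carriers and the ATP synthase inhibitor were above 0 with a median of 0.04. Cycs, cytochrome c (0.07), Etfb (0.07) and Atpif1, the inhibitor (0.08), were first by p. This list includes Cyc1, a subunit of complex III whose symbol the rule leaves out. Among 16 regulators of mitochondrial genes 9 were above 0 with a median of 0.00, with Peo1, the mitochondrial helicase Twinkle (-0.06), Tfam (0.04) and Esrrg (0.11) first by p. None of these genes was called, and the medians of these lists are not given without mouse Sample_4673.

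Of 19 genes of the citric acid cycle and pyruvate dehydrogenase 13 were above 0 with a median of 0.02, with Dld (0.05), Sucla2 (0.05) and Mpc1 (0.06) first. Mitochondrial ribosomal proteins had 60 of 76 above 0 with a median of 0.03, with Mrps16 (0.15), Mrpl30 (0.10) and Mrpl47 (0.10) first. Cytosolic ribosomal proteins had 79 of 82 above 0 with a median of 0.09, with Rps10 (0.13), Rps29 (0.17) and Rps21 (0.15) first. With mouse Sample_4673 included, this median was larger than that of the oxidative phosphorylation genes. The ribosomal protein score of mouse Sample_4673 was 0.42, where the next congenic mouse had 0.10. For the oxidative phosphorylation score these values were 0.21 and 0.11. The ranking may therefore rest on this mouse, and it was not tested without it. None of the genes in these lists was called. Ndufa4l2, a paralogue of Ndufa4 that the rule leaves out, was at 2.52 CPM with a log2 fold change of 0.05.

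The genotype difference went with the length of the transcript. Genes with a longest annotated transcript under 750 bp had a median log2 fold change of 0.08, with 24 of 24 above 0. The medians were 0.06 from 750 to under 1000 bp (17 genes), 0.04 to under 1500 bp (13 genes), 0.03 to under 2500 bp (14 genes) and 0.05 from 2500 bp (11 genes). The last 4 classes hold fewer than 20 genes each. With Sample_4673 left out, the 5 medians were 0.04, 0.04, 0.02, 0.02 and 0.02 from the shortest to the longest class, and that of other genes under 750 bp was 0.02. Other tested genes had 0.05 under 750 bp (255 genes), 0.02 from 1000 to under 1500 bp (1044 genes) and 0.00 from 2500 bp (8750 genes). Spearman's rho of log2 fold change with length was -0.49 over the 79 genes, and -0.35 without mouse Sample_4673, as descriptions.

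**Figure D5:**
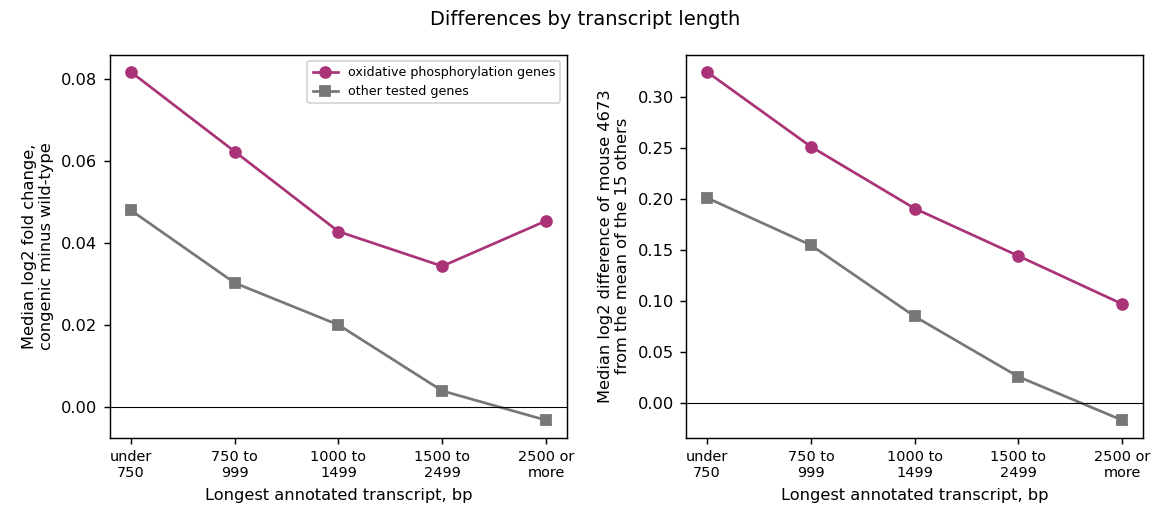
The x axis gives classes of the longest annotated transcript in bp, and the y axes the median log2 fold change by genotype (left) and the median log2 difference of mouse Sample_4673 from the mean of the other mice (right), for oxidative phosphorylation genes and other tested genes. The right panel falls from 0.32 in the shortest to 0.10 in the longest class of oxidative phosphorylation genes, and the left panel from 0.08 to 0.03 with 0.05 in the longest class.

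Mouse Sample_4673 showed the same order of lengths. Its log2 difference from the mean of the other mice had a median of 0.32 in genes under 750 bp and of 0.10 in those of 2500 bp or more. In other genes it was 0.20 and -0.02. Single genes ran from -0.14 for Ndufa10 to 0.50 for Cox4i2, with 0.45 for Cox7a2l and 0.44 for Atp5j2, and 70 of 79 were above 0. Its ribosomal protein score was 0.42, its cortical marker score -0.93, the lowest of the 16, and its total of 73.1 M gene counts the smallest. Mouse Sample_4738, among the lowest by the score of the 79 genes, had 73.1 M as well. Over the 16 mice the total had r = -0.20 (rho = -0.01) with that score, and r = 0.12 without mouse Sample_4673. As a sign of RNA state, the median share of counts on the 3′ side of the midpoint of 6718 long genes was 50.1% in mouse Sample_4673, inside the 49.0 to 51.5% of all mice. Over the 16 mice this share had r = 0.34 (rho = 0.45) with the score of the 79 genes, and r = 0.44 without mouse Sample_4673. The part of these measures in the score, of mouse Sample_4673 or of the others, was not tested.

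Between the sexes no oxidative phosphorylation gene passed the edgeR test either. EdgeR called 23 of 16716 genes (0.138%) and 0 of the 79. Of the 79 genes, 63 had a log2 fold change above 0 in males against females, with a median of 0.05, where 48.0% of all genes were above 0. The share with an unadjusted p under 0.05 was 13 of 79, near the 14.7% of all genes. Groups failed to overlap in 0.0897% of all genes and in none of the 79. Without mouse Sample_4673 the median fell to 0.02 with 49 of 79 above 0, and without mouse Sample_4806 it was 0.05 with 67 of 79, so 1 library moved the value by more than 1.5 times. The median of complex IV was -0.0032 when Sample_4673 was left out. The 10 cortical markers had a median log2 fold change of -0.62 in males (0 of 10 above 0, none called). Striatal projection neuron markers had 0.12 (13 of 13 above 0, 6 with an unadjusted p under 0.05), microglial markers 0.16 (4 of 5, 4 under 0.05), endothelial markers 0.14 (3 of 3, 1 under 0.05) and ependymal markers -0.29 (0 of 4). Interneuron markers had 0.12 (5 of 6) and oligodendrocyte markers -0.11 (1 of 5), and none of these was called. The part of these cell types in the result was not tested. With library size alone as scaling the median of the 79 genes was 0.02 with 53 of 79 above 0.

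Ndufs7, a core iron-sulphur subunit that passes electrons to ubiquinone, came closest. It ran from 70.7 to 79.8 CPM with a median of 73.2 in males and from 60.8 to 70.9 CPM with a median of 67.0 in females. The highest female lay just above the lowest male. The log2 fold change was 0.17 (SE 0.04, p = 0.000271, edgeR adjusted p = 0.0965), 0.18 without mouse Sample_4673 and 0.17 without mouse Sample_4806. The lowest adjusted p with 1 mouse left out was 0.0516.

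Atp5k, subunit e at the dimer interface of the ATP synthase, ran from 90.4 to 126 CPM with a median of 99.1 in males and from 81.9 to 97.4 CPM with a median of 90.5 in females. The groups overlapped between 90.4 and 97.4 CPM. The log2 fold change was 0.19 (SE 0.05, edgeR adjusted p = 0.153), and 0.14 without mouse Sample_4673. DESeq2 called Ndufs7 and Atp5k among its 259 genes by sex, and limma-voom called neither among 19. The other 8 genes of smallest p were Ndufb10 (0.15), Ndufa3 (0.14), Atp5o (0.11), Atp5g1 (0.10), Ndufa8 (0.12), Ndufa11 (0.10), Atp5d (0.09) and Cox4i1 (0.12 as log2 fold change), with edgeR adjusted p from 0.188 to 0.320. That of Cox4i1 was 0.07 without mouse Sample_4673.

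No difference of the genotype effect between the sexes was detected. For the product of genotype and sex, edgeR called 0 genes (0.0%), 4.18% of all genes and 0 of the 79 had an unadjusted p under 0.05, and the members' median was 0.00. That median was -0.05 without mouse Sample_4673 and -0.01 without mouse Sample_4806, so its sign turned with a single library. Among the genes of smallest p were Atp5d (-0.13), Cox4i2 (0.36), Ndufa11 (-0.14), Sdhc (-0.13), Atp5b (-0.12), Uqcrc1 (-0.12), Sdha (-0.09), Atp5a1 (-0.11) and Ndufv1 (-0.10, the log2 difference of the male from the female genotype effect). Their edgeR adjusted p was 0.967 each. Sdhc had a genotype log2 fold change of 0.15 in females and 0.02 in males.

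Exon usage was asked next, since the series was made to find differences in splicing. Annotated exons are divided into bins where transcripts differ, and each bin was set against the rest of its gene. A read counts in each bin it overlaps, so short bins have more counts per base. By genotype edgeR called 1 of 14875 genes (0.00672%) and none of the 81 members tested. At an unadjusted Simes p under 0.05 stood 0.491% of genes and 0 of 81 members, and 1.05% of all bins and 7 of 864 bins of members. The smallest Simes p was that of Cox6c (p = 0.288, edgeR adjusted p = 1). Its bin of smallest p, 361 bp at chromosome 15, 35867040 to 35867400, held 0.484 ± 0.0659% of the gene's exon counts in congenic and 0.567 ± 0.0547% in wild-type animals (SD, n = 8 each), with ranges that overlapped. The next were Atp5o, Cox6b2, Uqcrq, Ndufb2 and Ndufs7.

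By sex 19 genes were called (0.128%), none of them a member. An unadjusted Simes p under 0.05 was seen in 3.35% of all genes and in 5 of 81 members, and 3.27% of all bins and 37 of 864 bins of members had an unadjusted p under 0.05. Atp5g3 was first. Its 9 bp bin at chromosome 2, 73749340 to 73749348, toward the 5′ end of the gene, held 1.51 ± 0.331% of exon counts in males and 1.89 ± 0.333% in females (SD, n = 8 each), with ranges of 1.19 to 2.04% and 1.34 to 2.12%. The Simes p was 0.00122 (edgeR adjusted p = 0.325). Atp5d, Cox7c, Ndufb4, Ndufb6 and Atp5o followed.

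Isoforms of members were visible in the bins, and these examples were chosen after their values were seen. Atp5c1, the gamma subunit that turns inside the ATP synthase head, has a 37 bp exon at chromosome 2, 9978397 to 9978433, on NCBIM37, minus strand. This exon is known to be skipped in muscle. It holds 4 coding bases and then a stop codon, as its first bases show, with the exon in capitals after 20 bases of intron.
Atp5c1 exon start, chr2:9978427-9978453, minus strand: tttcctaatataataaccagGGATTAA
The bin held 981 to 1393 counts per mouse, or 31.8 per base, while the 97 bp coding bin before it held 20.2 per base, so the exon was covered in all 16 mice. Its share of the gene's exon counts was 3.797 ± 0.207% in congenic and 3.73 ± 0.166% in wild-type animals (SD, n = 8 each), a difference within the spread. Ndufv3, an accessory subunit of complex I, has a long exon of 1092 bp at chromosome 17, 31664255 to 31665346, in 1 annotated transcript. It had 989 to 1255 counts per mouse, while the bin of 124 bp at 31658514 to 31658637 had 1970 to 2537 and that of 212 bp at 31668055 to 31668266 had 1658 to 2170. The long exon took 16.1 ± 1.09% of the gene's exon counts in congenic and 16.4 ± 1.40% in wild-type animals (SD, n = 8 each), a difference within the spread.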

How the data were processed

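The authors deposited read counts per gene and per exon bin, as whole numbers without normalisation, for 48 runs of 16 mice. The submitters' processing notes name limma 3.22.7, edgeR 3.8.6, HTSeq 0.6.1p1 and FastQC 0.10.1. An aligner was not given in the sources used here. Per the labels, reads were 50 bp single-end in 1 place and 100 bp paired-end in another, and both mm9 and mm10 are listed. Bins rebuilt from NCBIM37 (mm9) annotation were equal in number to the deposited bins in 97.6% of 17389 gene groups with at least 5 bins. They were equal in number for all 84 members. Only the number of bins was compared.

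The 3 lanes of a mouse were summed. Genes with at least 10 counts were kept by edgeR's filter on the 4 groups, scaled by TMM and tested over all 16716 genes by edgeR's quasi-likelihood test (edgeR 4.0.16, limma 3.58.1, DESeq2 1.42.0, R 4.3.3), with sex in the genotype model and the reverse, and Benjamini-Hochberg adjustment (threshold 0.05). Exon usage was tested with diffSpliceDGE and Simes. Tests were two-sided. The scripts were tested on simulated data. Totals of 73.1 to 82.0 M gene counts limit the precision for scarce genes, and 8 mice per genotype limit it for all genes. Intervals cover the spread between mice. The members, lists and the rule for named genes (extremes of level, CV, correlation and p) were chosen with earlier results of these data known. The labels call the mice littermates and do not say which shared a litter, and p-values weigh a difference against the spread between these mice. Scaling, filter, tool, lane, covariate and left-out mice were varied. Results for 1 gene are not reported here.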

Additional observations from a re-analysis of the deposited data

Results flagged for a closer look

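In groups of 8 mice, 172 groups of values were checked for a mouse far from the others, and 15 had one, where chance flags about 1 in 20 groups. Mouse Sample_4673 was the far mouse among congenic mice for 9 genes, as the highest in each. The values of mouse Sample_4673 were 236 CPM for Ndufa4 (next 190), 194 CPM for Ndufb9 (next 158), 83.3 CPM for Ndufs4, 110 CPM for Uqcrb, 592 CPM for Cox4i1 (next 492), 180 CPM for Cox6b1, 181 CPM for Cox7a2l, 159 CPM for Atp5j2 and 126 CPM for Atp5k. It was also far for the mitochondrially encoded share of exon counts, with 8.34% where the next congenic mouse had 6.46%.

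Mouse Sample_4806, the wild-type mouse recorded as female with little Xist, was far among wild-type mice for 4 genes. It was the highest for Ndufc1 (40.3 CPM), Sdhc (83.7 CPM) and Cox6c (252 CPM), and the lowest for Atp5a1 (748 CPM, next 830). Mouse Sample_4738 was far among wild-type mice for the score of complex V, with -0.12 where the next had -0.03.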

How the results depend on the processing

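Beside the 0 genes called by genotype, the median log2 fold change of the oxidative phosphorylation genes kept its direction under scaling, filter, tool, lane, covariate and each left-out mouse, from 0.0317 without mouse Sample_4673 to 0.0846 without mouse Sample_4671. By sex it ran from 0.0166 without mouse Sample_4673 to 0.0662. The count of genes called by sex was 259 with DESeq2 and 13 with lane 4 alone, against 23, and 12 to 76 with a mouse left out, and DESeq2 called 2 members. By exon usage the single gene called by genotype became 0 with the stricter filter, with limma and without mouse Sample_4673 or Sample_4806, and the 19 by sex became 53 with limma and 7 without mouse Sample_4806. No member was called for exon usage in any of these. Median levels per kb by the longest transcript were 83.3 (complex I), 76.9 (II), 122 (III), 146 (IV) and 128 (V), and by the median coding transcript, chosen after seeing the data, 89.9, 102, 169, 201 and 203. Complex IV had 106 with all its members. The median r of the members was 0.523 to 0.643 with a mouse left out. A replicate block of neighbouring mouse numbers, which share only their place in the numbering, gave a genotype median of 0.0569 and called 0 genes, and no such block could be fitted for sex. The male minus female difference of the mitochondrially encoded share was -0.584 without mouse Sample_4673, with an exact permutation p of 0.0146.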
